A study of Mus musculus with 8 samples.

Results

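The nuclei described here are excitatory cortical neurons chosen by the summed transcripts of Otof, Glra3 and the long non-coding RNA gene 6530403H02Rik. Each carried at least 1 of these genes, and they go by the working name of upper-layer IT (intratelencephalic) neurons of the Otof and Glra3 type. They came from single-nucleus RNA libraries of mouse cerebral cortex at postnatal day 25, 1 library per animal. Barcodes entered when they showed 500 or more detected genes and no more than 2% of their UMIs (unique molecular identifiers, which mark captured RNA molecules) from mitochondrial genes, which left 77185 of 97772 barcodes. A member then had at least 1 UMI of Slc17a7 (the vesicular glutamate transporter of cortical excitatory neurons), at most 1 of Gad1 and Gad2 together (the GABA-synthesising enzymes), at least 1 of Ccbe1, at least 4 of Otof, Glra3 and 6530403H02Rik together, and at most 2 of the glial and vascular genes Slc1a3, Mog, Inpp5d and Flt1 together. This gave 1517 nuclei, which is 1.97% of the nuclei that passed and 3.61% of the 42073 with Slc17a7, few Gad UMIs and few glial UMIs, called Slc17a7 nuclei below. The values of these 11 genes chose the members, so their levels in the members and any contrast of levels between members and other nuclei are given as descriptions with no test. Only the genotype difference was tested between members and other nuclei.

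IT neurons are the excitatory neurons whose axons stay within the telencephalon, and those of the upper layers include the callosal neurons that join both hemispheres. Upper-layer IT neurons differ among themselves along gradients of adhesion and signalling genes more than by single on or off genes. Otof codes for otoferlin, a calcium-binding ferlin best known for transmitter release from inner hair cells. Glra3 codes for an alpha subunit of the glycine receptor, a chloride channel. Chd8 codes for a chromodomain helicase that remodels chromatin, and loss of 1 copy is among the best established genetic causes of autism in humans.

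The 8 mice were C57BL/6J, 4 wild type (WT) and 4 Chd8+/- (Chd8het), in 4 pairs matched for litter and sex, with 2 males and 2 females of each genotype. The medial cortex had been removed, the tissue was frozen, and all 8 samples went through nuclei isolation side by side. Nothing in the sources used here says which part of Chd8 is altered or in which cells, beyond the heterozygous genotype. Replicate 1 of each sex and genotype was a single-indexed library and replicate 2 a dual-indexed one, a technical batch balanced over genotype and sex. Same-numbered libraries of a sex are taken as a pair, which the labels do not spell out. The deposited files carry other replicate numbers than the titles, and both numberings put the same libraries together. Values by library are given in the order male 1, male 2, female 1, female 2.

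The libraries held 69503598 to 98132783 UMIs each, and the members gave 1605313 to 4127610 per library from 117 to 261 nuclei. Members per library numbered 117, 160, 122 and 257 in WT and 176, 261, 167 and 257 in Chd8het. Median UMIs per member were 12721 ± 728 (SD, n = 4) in WT and 12998 ± 461 (SD, n = 4) in Chd8het. Over all nuclei that passed, the library medians ran from 5227 to 6339.5 in the single-indexed libraries and from 6874 to 8390 in the dual-indexed ones. Barcodes shared with another library numbered 1389 among nuclei that passed, and 0 members shared one with a member of another library. Scrublet marked 77 members (5.08%) as predicted doublets against 5.48% of all nuclei, and they were kept unless stated. Chd8 itself, counted from 3' tags of unknown position relative to the altered part, stood at 71.9 ± 6.84 CPM (UMIs scaled to a common total per library; SD, n = 4) in WT members and 69.4 ± 9.45 in Chd8het members (log2 difference -0.06, adjusted p = 0.989, edgeR's quasi-likelihood test), so its level does not check the labels.

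Most members were chosen by 6530403H02Rik. It lies at chr3:120604109-120886733 (GRCm38, a lincRNA in GENCODE M21), was found in 90.2% of members with a mean of 5.71 UMIs, and gave 70.4% of all UMIs of the 3 marker genes. Otof (chr5:30367062-30461932) was found in 56.6% of members and Glra3 (chr8:55940460-56130070) in 52.3%. All 3 genes were seen together in 364 members (24.0%), whereas 313 (20.6%) carried 6530403H02Rik alone, 39 Otof alone and 27 Glra3 alone. The rule used these genes, and with means of 1.19 UMIs of Otof and 1.21 of Glra3 per member a nucleus with 0 UMIs may still express them.

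Rfx3 and Arsj are listed markers of this type that the rule did not use. The list was chosen with earlier results of these data known, so their levels here are a description. Rfx3, a winged-helix factor of the RFX family known for its role in ciliary genes, was detected in 98.3% of members with a mean of 9.29 UMIs. The same gene reached 4.17 UMIs in 1594 other nuclei with Ccbe1 and Stard8 but at most 1 marker UMI (called the other Ccbe1 and Stard8 nuclei), 1.67 in 8621 nuclei with at least 4 UMIs of Rorb (a layer 4 nuclear receptor), no Ccbe1 and likewise at most 1 marker UMI, and 0.992 in 4269 glial or vascular nuclei. Arsj, an arylsulfatase gene, was detected in 26.5% of members, 6.21% of the other Ccbe1 and Stard8 nuclei, 1.69% of Rorb nuclei and 0.773% of glial nuclei. Median depth differed between these kinds, from 12940 UMIs in members to 3115 in glial nuclei. After every nucleus was thinned to 4000 UMIs (1513 members and 1206 glial nuclei remained, 4 and 3063 were left out), Rfx3 was found in 86.2% of members, 62.9% of the other Ccbe1 and Stard8 nuclei, 42.5% of Rorb nuclei and 56.8% of glial nuclei. Thinned Arsj was found in 11.4%, 2.56%, 0.819% and 0.746% of the same kinds. Rfx3 is thus a graded and widely detected gene here, and Arsj the more restricted one, near the glial share in Rorb nuclei.

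The threshold of 4 marker UMIs falls within a continuous range. Members with exactly 4 marker UMIs numbered 390, with a mean of 7.07 Rfx3 UMIs and Arsj in 17.4%. The 519 nuclei with exactly 3, which met every other condition and were left out, had a mean of 6.24 Rfx3 UMIs and Arsj in 14.3%. At 10 or more marker UMIs there were 383 members.

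Counts were summed over the members of each library, scaled to CPM, and set against the sum of the 40556 other Slc17a7 nuclei of the same library as log2((CPM + 1)/(CPM + 1)). Of 4798 genes at 30 CPM or more in either sum, 60 were at least 2-fold higher in the members with the same sign in all 8 libraries (1.25%) and 108 were at least 2-fold lower (2.25%). Glis3, a zinc finger factor, had the highest ratio outside the rule genes at 2.10 ± 0.31 (SD, n = 8), from 46.4 CPM in members and 10.2 CPM in the other Slc17a7 nuclei. Arsj followed at 2.01 ± 0.39, Igsf11, an adhesion gene of the immunoglobulin family, at 1.93 ± 0.32 and Cntnap5c, of the contactin-associated family, at 1.65 ± 0.29. Rfx3 stood at 636 ± 48.1 CPM (SD, n = 8) against 222 ± 14.9, a ratio of 1.52 ± 0.15 that was the most even over libraries among the 12 highest. Syt17, a synaptotagmin relative, reached 1.43 ± 0.22. Evc2 (1.54), a component of the ciliary Hedgehog complex, and the kinase gene Nek10 (1.42) were also among the 12, with Arhgap6 (1.46) and the non-coding genes Gm10848 (1.86), Gm48530 (1.54) and Gm15261 (1.40). Gm15261 is annotated antisense inside Arhgap6, and whether the counting used strand is not given in the sources used here, so reads of this pair cannot be told apart.

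**Figure D1:**
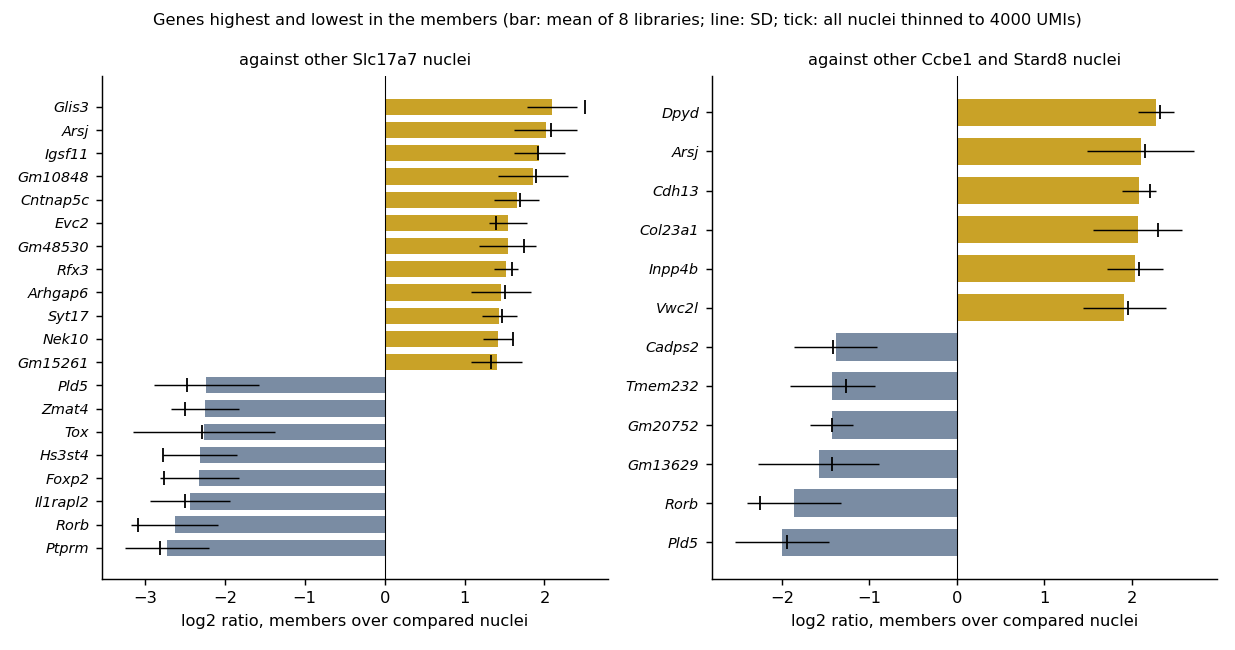
Mean log2 ratio of member CPM to the CPM of the compared nuclei over 8 libraries (bars, with the SD as lines and the value after thinning to 4000 UMIs as ticks), against other Slc17a7 nuclei on the left and other Ccbe1 and Stard8 nuclei on the right. The left panel runs from 2.10 for Glis3 to -2.72 for Ptprm, and each gene drawn keeps 1 sign in all 8 libraries.

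The genes lowest in members belong mainly to other cortical excitatory neurons. Ptprm, a receptor phosphatase, stood at 21.2 CPM in members and 139 in the other Slc17a7 nuclei (-2.72 ± 0.53, SD, n = 8). Rorb stood at 73.5 CPM against 431 (-2.63 ± 0.54) and Il1rapl2, a synaptic adhesion gene, at 118 against 597 (-2.44 ± 0.50). Foxp2 (-2.32), a factor of layer 6 corticothalamic neurons, Hs3st4 (-2.31), Tox (-2.26), Zmat4 (-2.25) and Pld5 (-2.23) completed the 8 lowest. The ratio of Tox varied most, with an SD of 0.89 over 8 libraries.

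By the marker lists the summed members resemble upper-layer IT neurons, although sub-clusters 6, 8 and 10, described below, go against that name. Of 19 upper-layer IT genes outside the rule, 6 were at least 2-fold higher than in the other Slc17a7 nuclei, namely Trpc6 (1.28 ± 0.29), Calb1 (1.18 ± 0.13), Meis2 (1.15 ± 0.14), Rasgrf2 (1.12 ± 0.13), Adamts2 (1.05 ± 0.35) and Stard8 (1.00 ± 0.21, SD, n = 8 for each), and 0 were 2-fold lower. Calb1 codes for the calcium buffer calbindin and Rasgrf2 for a Ras exchange factor of upper-layer neurons. Cux2, the upper-layer homeobox factor, was higher by 0.79. Of the L4/5 IT genes 4 of 9 were at least 2-fold lower (Rorb, Il1rapl2, Tox and Pamr1), and of the deep non-IT genes 6 of 13 were (Foxp2, Hs3st4, Tle4, Bcl11b, Tshz2 and Parm1). The background was 2.25%, and since the rule used Ccbe1 on the same nuclei these counts are descriptions. Interneuron genes were 2-fold lower in 3 of 11 (Nxph1, Erbb4 and Adarb2).

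Glial and vascular RNA was present in the members. Astrocyte genes summed to 622 to 896 CPM over the libraries' members against 712 to 932 in the other Slc17a7 nuclei. Oligodendrocyte genes were lower, with sums of 121 to 291 CPM against 240 to 443 and overlapping ranges. Microglial genes summed to 112 to 166 CPM against 141 to 168, and vascular genes to 20.8 to 42.4 against 23.7 to 37.1. No gene of these 4 lists was at 0 in all members. The rule itself limits 1 gene of each list.

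The synaptic and guidance genes were set against the other Slc17a7 nuclei in the same way, where 1.25% of all genes at 30 CPM were 2-fold higher and 2.25% 2-fold lower. The list totals also take in genes under 30 CPM, which could not be counted, so list shares and background have unlike bases. Syn3, a synapsin, was higher by 1.07 ± 0.16, and Fgf13, which binds sodium channels, by 1.17 ± 0.43 (SD, n = 8). Cadps2, a priming factor of dense-core vesicles, was lower by -1.93 ± 0.53, and the kainate receptor subunits Grik3 and Grik1 by -2.07 ± 0.29 and -1.85 ± 0.56. With Cnih3 (-1.28 ± 0.37) and Shisa6 (-1.05 ± 0.35), which code for auxiliary proteins of AMPA receptors, 4 of 31 ionotropic glutamate receptor and auxiliary genes were 2-fold lower and 0 higher. Of 40 trans-synaptic adhesion genes 1 was 2-fold higher (Cntnap5c, 1.65 ± 0.29) and 3 were 2-fold lower (Il1rapl2, Cntnap4 and Igsf9b). In the axon guidance list 1 of 49 was 2-fold higher (Epha3, an ephrin receptor, at 1.33 ± 0.26) and 5 were 2-fold lower (Sema3e, Sema5a, Ntng1, Nrp1 and Sema6d). No postsynaptic scaffold gene of 18 and no cadherin of 26 other than Cdh18 (-1.42 ± 0.34) was counted as 2-fold different at 30 CPM with the same sign in all 8 libraries.

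The other Ccbe1 and Stard8 nuclei share Ccbe1 with the members. Of 4628 genes at 30 CPM, 42 were at least 2-fold higher and 27 at least 2-fold lower with the same sign in 8 libraries. Dpyd, an enzyme of pyrimidine breakdown, stood at 161 CPM in members against 32.0 (2.28 ± 0.20, SD, n = 8). Cdh13, a cadherin anchored in the membrane by a lipid, stood at 412 against 96.2 (2.09 ± 0.20). Arsj (2.10), Col23a1 (2.07), Inpp4b (2.04) and Vwc2l (1.92) completed the 6 highest. The 6 lowest were Pld5 (12.6 against 51.4 CPM), Rorb (-1.86), Gm13629 (-1.58), Gm20752 (-1.43), Tmem232 (-1.43) and Cadps2 (-1.39). Adarb2 and Il1rapl2, which return in the genotype comparison, overlapped in level between WT members and these nuclei of WT (Adarb2 28.7 ± 6.91 against 27.3 ± 3.92 CPM, Il1rapl2 83.8 ± 26.0 against 108 ± 35.0, SD, n = 4).

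Within the 1513 members of 4000 UMIs or more, clustering on genes outside the rule gave 10 sub-clusters, numbered by size. They are a description with no test, and their number depends on the resolution, with 5 at 0.5 times the resolution used and 15 at 2 times. Sub-clusters 1 to 5 and 7 hold most of the members. Sub-cluster 1 (266 nuclei) was led by Syt10, Fst and Met, which code for a synaptotagmin, the activin antagonist follistatin and the receptor of hepatocyte growth factor. Sub-cluster 2 (250) was led by 9630002D21Rik, Trpc6 and Bdnf, the last at 73.5 CPM inside and 17.1 outside. Sub-cluster 3 (211) was led by Cntnap5c and Efemp1, sub-cluster 4 (199) by Tshz2 at 462 CPM inside and 72.1 outside, sub-cluster 5 (187) by genes with Dpyd at 479 CPM inside and 138 outside, and sub-cluster 7 (131) by Klhl1. Mean UMIs of Glra3 in these 6 ran from 0.870 to 1.85 per nucleus.

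**Figure D2:**
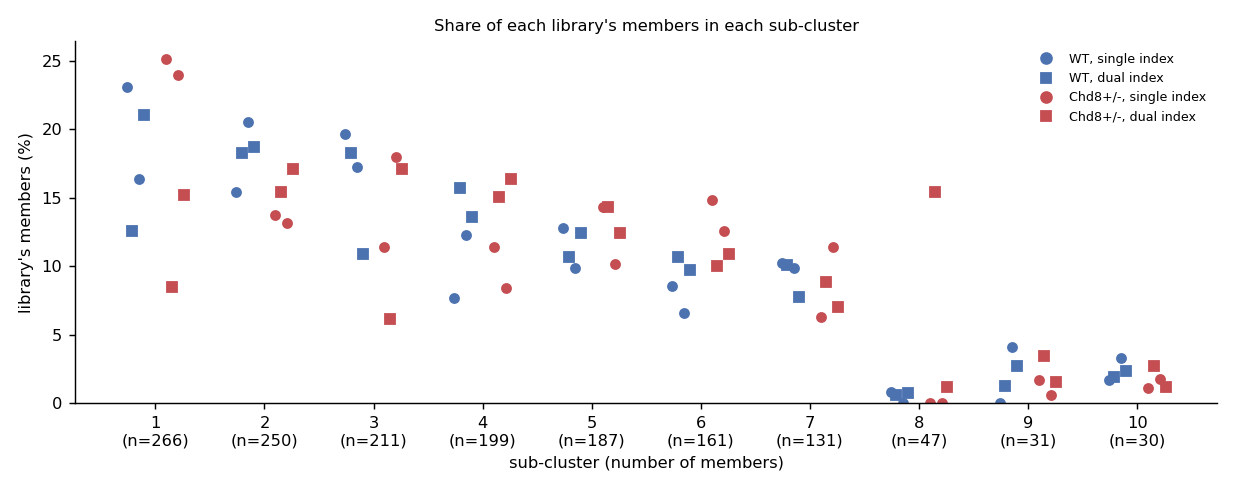
Share of each library's members in each of the 10 sub-clusters, in percent, 1 point per library, colour by genotype and marker by index type. Sub-cluster 8 holds 15.4% of the members of Chd8het male 2 and at most 1.17% in every other library.

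Of the remaining 4 sub-clusters, 6, 8 and 10 had lower sums of upper-layer IT genes than the rest of the members. Sub-cluster 6 (161 nuclei, 10.6% of members and 16.3% of their UMIs) was led by Hs3st4, Rorb, Foxp2 and Grik3, the very genes that are low in the members as a whole. Its median was 19050 UMIs, and 42 of its nuclei (26.1%) were predicted doublets, against at most 10.0% in any other sub-cluster. The upper-layer IT genes summed to 2134 CPM inside it and 3124 outside, the L4/5 IT genes to 954 and 270, the deep non-IT genes to 1247 and 276, and the interneuron genes to 330 and 155. Sub-cluster 10 (30 nuclei) was led by Galnt14, with upper-layer IT genes at 2169 CPM inside and 2977 outside, deep IT genes at 1132 and 200 and a mean of 2.43 Rfx3 UMIs. Sub-cluster 9 (31) was led by Adam33, and its upper-layer IT genes were at 3256 CPM against 2958 outside, its deep non-IT genes at 137 against 438. Its striatal genes had the highest sum of the 10 sub-clusters, 2545 CPM against 1426, with Pde10a and Penk at least 2-fold higher, and its microglial genes were at 226.8 against 144.6, with C1qa and Tmem119 at least 2-fold higher. Sub-cluster 8 (47) was led by Ndst4, Htr2c and Npas3, and 40 of its 47 nuclei came from the single library Chd8het male 2. Its upper-layer IT genes had the lowest sum of the 10 sub-clusters, 2067 CPM against 2992 outside, with deep non-IT genes at 917 against 418 and hippocampal genes at 1080 against 389, where Zbtb20 alone was at least 2-fold higher. By these markers sub-clusters 6, 8 and 10 go against the upper-layer name.

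The share of members among nuclei that passed was 1.30%, 2.05%, 1.15% and 2.47% in WT and 1.63%, 2.62%, 1.64% and 3.05% in Chd8het. The exact 95% binomial interval ran from 0.956% to 1.37% in the lowest library and from 2.32% to 2.95% in Chd8het male 2, and covers counting error only. The groups overlap, and within each pair the Chd8het share was the higher in 4 of 4. The means were 1.74% ± 0.63 (SD, n = 4) and 2.24% ± 0.72 (SD, n = 4), a difference of 0.50 percentage points that did not pass an exact permutation test over libraries (p = 0.314, two-sided, smallest possible 0.0286). Leaving out 1 library moved it between 0.22 points, without Chd8het female 2, and 0.74, without WT female 2, and it was 0.30 without WT female 1. An exact permutation within the 4 pairs gave p = 0.125, the smallest that 4 pairs allow. Split by index type, the difference was 0.41 points in the single-indexed pairs and 0.58 in the dual-indexed pairs.

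**Figure D3:**
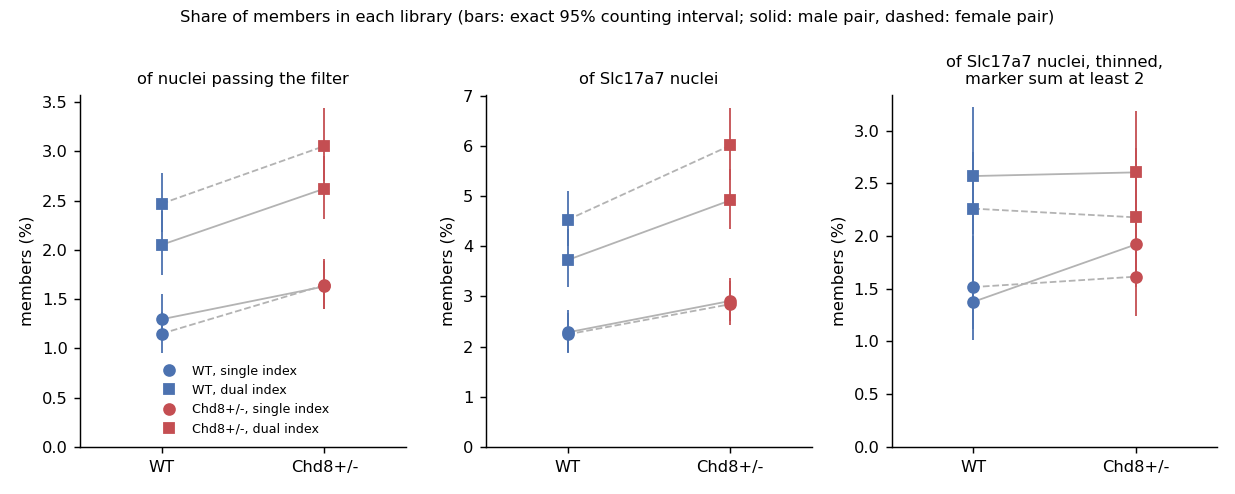
Members in percent, 1 point per library with its exact 95% binomial interval and lines joining the pairs, of nuclei that passed (left), of Slc17a7 nuclei (middle) and of Slc17a7 nuclei after thinning to 4000 UMIs with at least 2 marker UMIs (right). Chd8het is the higher of each of 4 pairs in the first 2 panels and of 3 in the third.

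The share also differed between index types, 1.43% on average where single and 2.55% where dual (exact permutation p = 0.0286). Among Slc17a7 nuclei the share was 2.28%, 3.72%, 2.24% and 4.52% in WT and 2.91%, 4.91%, 2.84% and 6.00% in Chd8het, with means of 3.19% ± 1.12 and 4.17% ± 1.56 (SD, n = 4, exact permutation p = 0.343). That difference of 0.98 points lay between 0.36, without Chd8het female 2, and 1.42, without WT female 2. The rule counts UMIs, so it selects deep nuclei. With every nucleus thinned to 4000 UMIs and shallower nuclei left out of both sides, the same rule kept 9 to 32 members of 5803 to 7713 nuclei per library, where the main rule was applied to 7799 to 10804. The difference became -0.045 points of the thinned nuclei (exact permutation p = 0.714) and 2 of 4 pairs were higher in Chd8het. With the thinned rule eased to 2 marker UMIs it was 0.053 points with 3 of 4 pairs higher.

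Glra3, a gene of the rule, was also looked at over all nuclei, where the rule plays no part. In members, where its level is a description with no test, it stood at 80.2, 46.3, 94.7 and 46.4 CPM in WT and 135, 52.3, 125 and 101 in Chd8het. Over all nuclei that passed it stood at 14.6, 12.1, 15.8 and 13.1 CPM in WT and 21.6, 21.5, 24.9 and 23.3 in Chd8het, and the groups do not overlap. The log2 difference was 0.69 (SE 0.067), with an adjusted p of 0.0632 by edgeR's quasi-likelihood test with Benjamini-Hochberg adjustment, which misses the threshold of 0.05. The other kinds of nuclei were chosen in part by their low marker UMIs and are not used for this gene. With Glra3 taken out of the rule and the threshold eased to 3 UMIs of the other 2 genes, the share difference was 0.37 points (exact permutation p = 0.514). In that setting, called members chosen without Glra3 below, 4 of 4 pairs were still higher. With 6530403H02Rik taken out instead and a threshold of 2 UMIs of Otof and Glra3, the share difference was 0.68 points (exact permutation p = 0.114). Gene and threshold thus changed together in both settings. How much of the share difference follows from Glra3 in the rule was not tested beyond these values. Over all nuclei that passed, 6530403H02Rik and Otof were highest in Chd8het male 2, with values given among the flagged results.

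The genotype comparison asks which genes differ between WT and Chd8het within these neurons. Summed member counts were fitted with edgeR's quasi-likelihood test with terms for sex, index type and genotype. Of 12368 genes tested, 11 passed an adjusted p of 0.05 (0.0889%), 10 higher and 1 lower in Chd8het. The 10 described here code for neuronal adhesion proteins (Il1rapl2, Cntn6 and Dscaml1), a serotonin receptor (Htr2c), a laminin (Lama4), enzymes of sugar chains (Hs3st5 and Galntl6), a zinc finger protein (Zfp804b), an RNA-binding protein (Adarb2) and a long non-coding RNA (Rmst). At an unadjusted p of 0.05 there were 735 genes (5.94%), 403 higher (3.26%) and 332 lower (2.68%). The groups of library CPM did not overlap for 251 of all genes (2.03%) and for 7 of the 11.

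The count of 11 depends on the terms of the fit and on single libraries. With no term for index type 0 genes passed (331 at an unadjusted p of 0.05), while DESeq2 with the same terms called 30, of which 10 were among the 11. Between single- and dual-indexed libraries 1546 of 12368 genes (12.5%) differed. The index type term was included because earlier results of these data had shown such differences. Every replicate 1 is single-indexed and every replicate 2 dual-indexed, so index type cannot be told apart from other differences between these replicates. Leaving out WT male 1, WT male 2, WT female 1 or Chd8het male 1 left 0 called, leaving out Chd8het male 2 left 6, and leaving out Chd8het female 2 gave 71. In members chosen without Glra3, 6 genes passed, of which 5 were among the 11. Over 22 alternative settings each of the 11 genes kept its direction.

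Adarb2 (chr13:8202866-8768747), an RNA-binding relative of the editing enzymes and a textbook marker of caudal interneurons, stood at 34.6, 23.4, 34.9 and 22.2 CPM in WT and 65.4, 67.5, 60.6 and 71.5 in Chd8het. The groups do not overlap, and the log2 difference was 1.25 (SE 0.157, adjusted p = 0.0096, edgeR's quasi-likelihood test). Its UMIs were concentrated in few nuclei, since the top 5 held 48.2% of them in Chd8het and 14.3% in WT, and the share of members with any UMI was 28.1% against 25.5%. With predicted doublets removed the difference was 0.72 (adjusted p = 0.636, edgeR). Without sub-clusters 6 and 8 the log2 ratio of mean CPM was 0.64 in place of 1.18, with 3 of 4 pairs higher.

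Il1rapl2 (chrX:137570608-138846946) stood at 69.7, 113, 55.4 and 97.4 CPM in WT and 124, 228, 114 and 144 in Chd8het, and rose by 0.85 (SE 0.106, adjusted p = 0.0096, edgeR). The lowest Chd8het library lies just above the highest WT library. Rmst (chr10:92071037-92165170), a long non-coding RNA known from neurogenesis, stood at 8.20, 12.2, 13.1 and 12.5 CPM in WT and 33.3, 28.8, 22.2 and 40.9 in Chd8het, and rose by 1.46 (SE 0.208, adjusted p = 0.0167, edgeR). Cntn6, a contactin of the axon surface, stood at 94.9, 69.7, 57.9 and 80.4 CPM in WT and 153, 162, 129 and 112 in Chd8het, with no overlap (0.84, SE 0.131, adjusted p = 0.0294, edgeR). Members with a Cntn6 UMI made up 42.7% in WT and 58.0% in Chd8het. The same shares were 42.6% and 47.3% for Il1rapl2 and 9.16% and 12.5% for Rmst. The top 5 nuclei held 23.6% of Rmst UMIs in WT and 34.9% in Chd8het.

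Dscaml1 (chr9:45426628-45753712), a homophilic adhesion protein related to the Down syndrome cell adhesion molecule, was the gene that fell. It stood at 395, 807, 276 and 688 CPM in WT and 275, 564, 174 and 418 in Chd8het. The groups overlap, with the dual-indexed library the higher of each sex in both genotypes, and Chd8het was the lower of all 4 pairs. The log2 difference was -0.61 (SE 0.089, adjusted p = 0.0167, edgeR's quasi-likelihood test). It remained called in 14 of the 22 alternatives, the most of the 11 genes, and was -0.63 as a log2 ratio of mean CPM without sub-clusters 6 and 8.

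**Figure D4:**
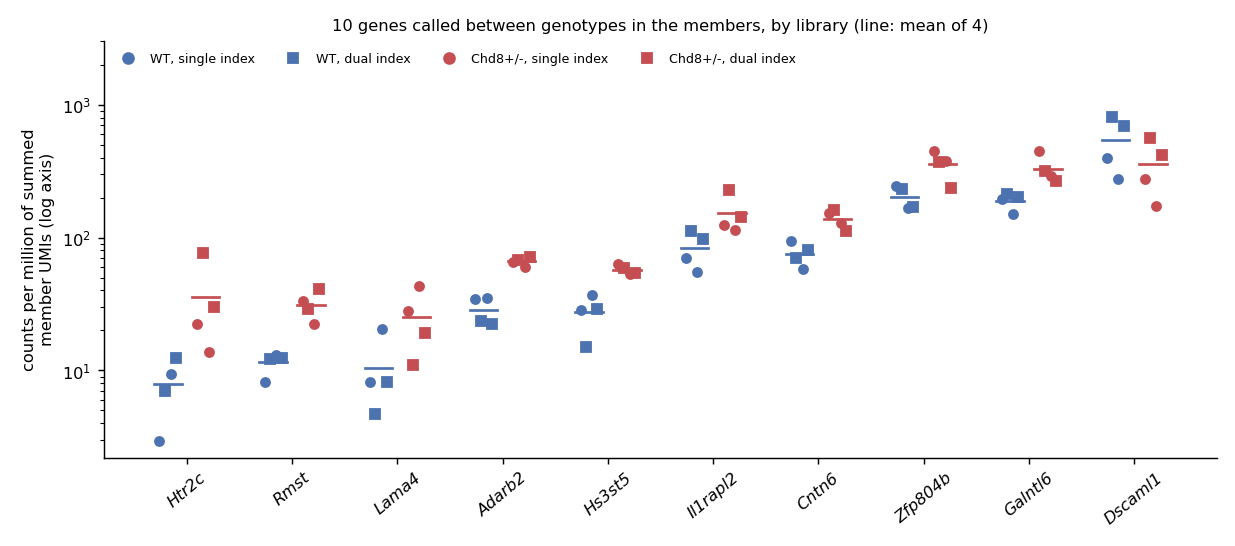
CPM in the summed members of each library for 10 of the 11 genes called between genotypes, on a log axis, with 1 point per library, marker by index type and a line at each genotype's mean. The largest gap is that of Htr2c, where Chd8het male 2 is the highest point at 76.1 CPM, and Dscaml1 is the only gene drawn with the lower mean in Chd8het.

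Zfp804b stood at 244, 233, 166 and 170 CPM in WT and 449, 373, 376 and 236 in Chd8het (0.79, SE 0.104, adjusted p = 0.0116, edgeR). Lama4 stood at 8.20, 4.68, 20.6 and 8.16 CPM in WT and 27.8, 11.1, 43.6 and 19.1 in Chd8het (1.29, SE 0.175, adjusted p = 0.0123, edgeR). Both overlap between groups and were higher in 4 of 4 pairs. Members with a Lama4 UMI made up 10.4% in WT and 20.9% in Chd8het.

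Htr2c codes for the 2C serotonin receptor and had the widest difference, 2.01 (SE 0.332, adjusted p = 0.0428, edgeR). It stood at 2.93, 7.02, 9.34 and 12.5 CPM in WT and 22.3, 76.1, 13.7 and 30.3 in Chd8het, with the highest value in Chd8het male 2. That library held 40 of the 47 nuclei of sub-cluster 8, where Htr2c was at 264 CPM against 18.3 outside. Without Chd8het male 2 the difference was 1.53 (adjusted p = 0.131, edgeR). In members chosen without Glra3 it was 1.71 (adjusted p = 0.251, edgeR), with 3 of 4 pairs higher. The log2 ratio of mean CPM was 2.03 over all members, 1.49 without sub-cluster 8 and 2.15 without sub-cluster 6. Without both sub-clusters it was 1.25, with 4 of 4 pairs higher. Hs3st5, a heparan sulfate sulfotransferase, stood at 28.7, 14.97, 36.8 and 29.1 CPM in WT and 63.0, 59.2, 52.9 and 54.0 in Chd8het (1.08, SE 0.181, adjusted p = 0.0458, edgeR). Galntl6, of the family that starts O-linked sugar chains, stood at 194, 211, 151 and 203 CPM in WT and 447, 319, 289 and 266 in Chd8het (0.76, SE 0.130, adjusted p = 0.0458, edgeR). Neither overlaps between groups.

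Sub-cluster 6, with its deep-layer genes and many predicted doublets, carried much of the RNA of the called genes. It holds 16.3% of member UMIs, but 55.3% of those of Rmst, 54.1% of Hs3st5, 41.8% of Il1rapl2, 41.4% of Galntl6, 37.1% of Adarb2, 35.1% of Cntn6, 33.2% of Htr2c, 32.9% of Zfp804b and 24.9% of Lama4, and only 11.1% of Dscaml1. Its share of the members was 8.55%, 10.7%, 6.56% and 9.73% in WT and 14.9%, 10.0%, 12.6% and 10.9% in Chd8het, higher in 3 of 4 pairs. Without sub-clusters 6 and 8 the log2 ratio of mean CPM moved from 1.37 to 0.63 for Rmst, from 0.86 to 0.66 for Il1rapl2, from 0.80 to 0.54 for Galntl6, from 1.04 to 0.64 for Hs3st5 and from 0.82 to 0.53 for Zfp804b. It stayed near its value for Lama4 (1.24) and Cntn6 (0.84). Il1rapl2 then stood at 59.2 ± 13.8 CPM in WT and 94.3 ± 59.6 in Chd8het (SD, n = 4). Rmst and Il1rapl2 were then higher in 3 of 4 pairs and the other 5 of these genes in 4 of 4. With predicted doublets removed 4 genes passed, which were Lama4, Zfp804b, Dscaml1 and Cntn6. The part of these nuclei in the calls was not tested beyond these values.

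The next 9 genes by p, which were not called, were Prex2 (0.90), Rcan2 (0.57), Slc24a3 (0.80), Arhgap42 (0.82), Slit2 (0.75), Gnasas1 (-1.78), Ncam2 (0.90), Cep112 (0.61) and Adamtsl1 (0.84), with adjusted p from 0.0636 to 0.105 by edgeR's quasi-likelihood test. Slit2, a secreted repellent of growing axons, passed once the 4 pairs were fitted as blocks (0.73, adjusted p = 0.0301, edgeR). Gnasas1 is annotated antisense and rests on few UMIs, at 6.37 ± 2.58 CPM in WT and 1.80 ± 0.46 in Chd8het (SD, n = 4).

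By list, called genes were few. Upper-layer IT markers had 0 of 17 called and a median log2 difference of -0.14 against 0.0019 over all genes tested, with 4 of 17 lower at an unadjusted p under 0.05, against 2.68% of all genes tested. These were Mdga1 (-0.59), Wfs1 (-0.66), Adamts2 (-0.57) and Meis2 (-0.26). L4/5 IT markers had 1 of 6 called (Il1rapl2), a median of 0.51 and 6 of 6 above 0, against 0.0889% called and 6239 of 12368 above 0 over all genes tested. Their summed CPM was 261 to 326 in WT members and 435 to 467 in Chd8het members, without overlap. That sum includes the called gene Il1rapl2, at a mean of 83.8 CPM in WT and 152 in Chd8het. The L4/5 IT genes are high in sub-cluster 6, whose part in the difference was not tested. Interneuron markers had 1 of 7 called (Adarb2), a median of 0.25, 4 of 7 above 0, and sums of 131 to 180 CPM in WT and 182 to 263 in Chd8het. Their defining genes Gad1 and Gad2 were limited by the rule and are not in the sum. The sum includes Adarb2, at a mean of 28.7 CPM in WT and 66.2 in Chd8het, and Erbb4, at 51.0 and 79.9. The difference of the sum therefore rests largely on these genes. The interneuron sum was also higher in sub-cluster 6, at 330 CPM against 155 outside, and the part of that sub-cluster here was not tested. Deep non-IT markers had 0 of 8 called and a median of 0.01, and deep IT markers 0 of 6 and 0.17.

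Among functional lists, trans-synaptic adhesion genes had 1 of 38 called (Il1rapl2), with a median of 0.05, and neuropeptides and neuromodulator receptors 1 of 30 (Htr2c), with a median of 0.07. No gene was called in the other functional lists, and at an unadjusted p under 0.05 the backgrounds were 3.26% higher and 2.68% lower. At that level axon guidance genes had 10 higher and 1 lower of 45, ionotropic glutamate receptors 4 and 5 of 28, cadherins 5 and 1 of 24, trans-synaptic adhesion genes 5 and 1 of 38, neuropeptides and neuromodulator receptors 5 and 1 of 30, and metabotropic glutamate receptors 2 and 1 of 9. Potassium channels had 4 higher and 2 lower of 44, sodium and calcium channels 3 and 2 of 27, ferlins and synaptotagmins 2 and 1 of 20, glycine and GABA receptors 2 and 1 of 22, release machinery 1 and 0 of 36, and postsynaptic scaffolds 0 and 0 of 18. In the axon guidance list Slit2 (0.75), Ntng1 (0.86), Epha6 (0.48) and Unc5d (0.32) had the smallest p, and among cadherins Cdh20 (0.93, adjusted p = 0.109, edgeR). Without 1 library Slit2 ran from 0.54 to 0.89, Ntng1 from 0.59 to 1.10, Epha6 from 0.27 to 0.61 and Unc5d from 0.25 to 0.40.

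No gene was called among 9 CHD remodellers, 40 other remodeller subunits, 58 autism-associated regulators, 38 cortical identity factors, 6 RFX factors, 14 Notch genes, 22 Wnt genes, 20 activity-induced genes, 79 ribosomal protein genes and 79 oxidative phosphorylation genes. Ribosomal protein genes had a median of 0.11 with 58 of 79 above 0. Rfx3 stood at 635, 638, 708 and 673 CPM in WT members and 579, 588, 589 and 679 in Chd8het members, with overlap (-0.13, adjusted p = 0.926, edgeR). Glial and vascular lists had 0 called. The medians were 0.08 over 6 astrocyte, 0.14 over 9 oligodendrocyte, 0.22 over 3 oligodendrocyte precursor and 0.11 over 7 microglial genes tested. Only 1 vascular gene was tested, at 0.14. Striatal and hippocampal lists had 0 of 5 and 0 of 4 called.

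The same fit was run in other kinds of nuclei, and the difference between kinds was tested directly. Fitted alone, the other Ccbe1 and Stard8 nuclei had 2 genes called of 12659 and the Rorb nuclei 0 of 16841. The 2 genes were 5330434G04Rik (-1.18, adjusted p = 0.00544, edgeR) and Maml3 (-0.73, adjusted p = 0.00544), a Mastermind coactivator of Notch. Over all Slc17a7 nuclei that are no members, which include these, 5330434G04Rik was also called (-0.62, adjusted p = 0.0346, edgeR) and Maml3 was not (-0.68, adjusted p = 0.253). In the Rorb nuclei the values were -0.71 (adjusted p = 0.133, edgeR) and -0.72 (adjusted p = 0.327), lower in 4 of 4 pairs for both genes. In members, 5330434G04Rik stood at 101, 80.5, 74.1 and 83.9 CPM in WT and 59.9, 71.4, 47.6 and 50.2 in Chd8het (-0.59, adjusted p = 0.123, edgeR), and Maml3 differed by -0.46 (adjusted p = 0.129). In members chosen without Glra3, 5330434G04Rik was called (-0.69, adjusted p = 0.0346, edgeR) and Maml3 was not (-0.41, adjusted p = 0.316). With the main rule neither difference between the kinds passed (0.57 with adjusted p = 0.182 and 0.27 with adjusted p = 0.658, edgeR).

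**Figure D5:**
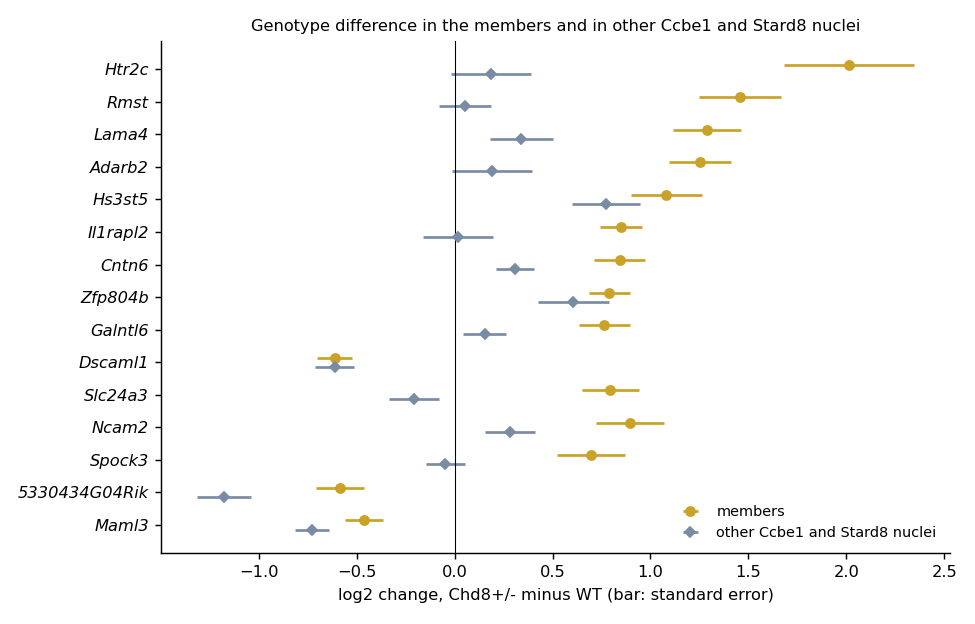
Log2 difference Chd8het minus WT with its standard error in the members (circles) and in the other Ccbe1 and Stard8 nuclei (diamonds), for the same 10 called genes, 3 further genes that differed between kinds, 5330434G04Rik and Maml3. Rmst lies at 1.46 in members and 0.05 in the other nuclei, whereas 5330434G04Rik lies at -0.59 and -1.18.

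The genotype difference itself differed between members and the other Ccbe1 and Stard8 nuclei for 8 of 13123 genes (0.061%), each higher in the members. For Adarb2 the excess was 1.04, for Il1rapl2 0.90, for Rmst 1.42, for Htr2c 1.84 and for Slc24a3, a sodium, potassium and calcium exchanger, 1.01 (adjusted p = 0.00231 for each, edgeR's quasi-likelihood interaction test). Chsy3, a chondroitin sulfate synthase, followed at 0.47 (adjusted p = 0.0039), Ncam2, an adhesion gene, at 0.60 (adjusted p = 0.00635) and Spock3, a testican proteoglycan, at 0.74 (adjusted p = 0.041). In the other Ccbe1 and Stard8 nuclei the genotype difference was 0.19 for Adarb2, 0.02 for Il1rapl2, 0.05 for Rmst, 0.19 for Htr2c and -0.21 for Slc24a3. Among the called genes whose difference between kinds did not pass, it was -0.61 for Dscaml1 in both kinds, 0.77 for Hs3st5 (1.08 in members), 0.61 for Zfp804b (0.79), 0.34 for Lama4 (1.29), 0.31 for Cntn6 (0.84) and 0.15 for Galntl6 (0.76). Slc24a3 stood at 42.2, 80.9, 45.5 and 84.2 CPM in WT members and 116, 134, 85.2 and 105 in Chd8het members, with no overlap. The 5 leading genes include those with much of their RNA in sub-cluster 6 or 8, for which no like set was removed from the other nuclei. With predicted doublets removed 5 genes passed, and Rmst, Htr2c, Slc24a3 and Ncam2 were those among the 8. The excess was then 0.45 for Adarb2 (adjusted p = 0.939, edgeR) and 0.64 for Il1rapl2 (adjusted p = 0.488, edgeR). Il1rapl2 also lost its call without WT female 2 (0.67), Chsy3 without Chd8het male 1 (0.41), Ncam2 without WT male 2, WT female 1 or Chd8het male 1 (0.50 to 0.56), and Spock3 without any 1 of these 3 or Chd8het male 2 (0.60 to 0.73). Leaving out Chd8het male 1 gave 5, Chd8het male 2 gave 15 and Chd8het female 2 gave 28.

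Between sexes 12 of 12368 genes passed in the members (0.097%). The X and Y genes Xist, Tsix, Uty, Eif2s3y, Kdm5d and Ddx3y made up 6, and Xist stood at 758 to 1321 CPM in females and at most 0.468 in males, as labelled. Tsix is annotated antisense to Xist, and with no strand use stated their reads cannot be told apart, so Tsix is uncertain as a separate gene. The other 6 were autosomal. Nectin3, a cell adhesion protein of synaptic junctions, stood at 210 to 412 CPM in females and 109 to 214 in males (male minus female -0.98, adjusted p = 0.0167, edgeR). Pak7, a p21-activated kinase of neurons, was lower in males by -0.69 (adjusted p = 0.0115) and Trabd2b, a membrane protease that inactivates Wnt proteins, higher by 0.73 (adjusted p = 0.0115), with Nrep (-1.59), Gm765 (-1.69) and the non-coding Gm45321 (2.08) at lower levels. Without the index term 6 genes passed, which were the X and Y genes, so no autosomal gene was called. Nectin3, Pak7, Trabd2b, Nrep and Gm765 were each called in 6 of 12 settings and Gm45321 in 9. Library values overlapped between the sexes for each of these genes except Nrep, for Pak7 with 517 to 905 CPM in females and 378 to 636 in males. Leaving out WT male 1, WT female 1 or Chd8het male 2 left 7, WT male 2 left 8, WT female 2 gave 129 and Chd8het female 1 gave 169. The genotype difference was not shown to differ between sexes, with 0 of 12368 genes passing (0%) and 460 at an unadjusted p under 0.05 by edgeR, and 0 by DESeq2. On simulated data the edgeR test of this term recovered 3.03% of changes of 0.5, 31.3% of 1 and 80.6% of 2 (log2). Moderate differences between sexes could therefore be missed. Ncam2 had the smallest p (1.09, adjusted p = 0.826, edgeR).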

How the data were processed

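The authors deposited whole-number UMI counts per gene and barcode for 8 single-nucleus libraries, with barcodes already limited. The submitters' processing notes name STAR 2.7.9a, STARsolo, Cell Ranger and mm10, with no roles. Strandedness, annotation and use of intron reads are not given in the sources used here. Nuclei were chosen by the rule in the text and their counts summed per library (Python 3.11.15, scipy 1.17.1). The members, gene lists and tests were chosen with earlier results of these data known, and sub-clusters were examined after the genotype calls. Genotype, sex and their interaction were tested with edgeR 4.0.16 in R 4.3.3 (TMM scaling, filterByExpr with a minimum count of 10, quasi-likelihood F test, Benjamini-Hochberg over all genes tested). The difference between kinds of nuclei was tested with a term for each library. DESeq2 1.42.0 was an alternative. The other alternatives were scalings, filters, other member rules, doublet removal (Scrublet in scanpy 1.11.5, expected rate 0.8% per 1000 nuclei), thinning to 4000 UMIs and leaving out each library. Sub-clusters came from Leiden clustering (leidenalg 0.10.2, resolution 0.8) of thinned counts centred per library. Coordinates and gene types came from GENCODE M21 on GRCm38, matched by gene identifier.

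Named genes were all called genes filled to 20 by p, the 12 highest and 8 lowest levels (6 and 6 against the similar kind), leading genes of each list and term, and genes known from earlier results. A few of them are not reported here. The labels state 4 litter- and sex-matched pairs, taken as same-numbered libraries of a sex. Same-numbered libraries of a sex deviated together from their genotype means (r = 0.394 to 0.746 over 4341 genes), and share sex and index type. The sex by index contrast, which is free of both, correlated at -0.0965 between genotypes, so these values do not show litter pairing. Replicates of the same sex and genotype differed beyond sampling noise (chi-square per degree of freedom 7.29 to 11.5). These replicates also differ in index type, so the value includes that batch. On simulated data for the genotype test (12097 genes) 20 of 66 changes of 0.5 (30.3%) were recovered. Of changes of 1, 58 of 67 (86.6%) were, and of changes of 2 (log2), 67 of 67 (100%). Of 11897 unchanged genes 9 were called. With Benjamini-Hochberg adjustment that count depends on how many changes were placed, so it is no estimate for the 11 calls. The changes were placed only in genes with a mean of at least 20 UMIs per library. The simulated means held no sex or index effect, so recovery in sparser genes or with such effects was not tested. Binomial intervals cover counting error only.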

Additional observations from a re-analysis of the deposited data

Results flagged for a closer look

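Sub-cluster 8 made up 15.4% of the members of Chd8het male 2 and at most 1.17% in the other libraries of that genotype, which put this library far from the other 3. It was the only 1 of the 78 groups of values tested in which a library stood apart in this way. Chance alone marks about 1 in 20 groups. The sub-cluster was led by Ndst4, Htr2c and Npas3. Upper-layer IT genes summed to 2067 CPM inside it and 2992 outside, deep non-IT genes to 917 and 418, and hippocampal genes to 1080 and 389, where Zbtb20 was the 1 gene of 9 at least 2-fold higher. Its part in the Htr2c difference was not tested beyond the values without it. Chd8het male 2 also stood out over all nuclei that passed, where the marker rule plays no part. 6530403H02Rik was there at 49.96, 120.1, 52.86 and 64.27 CPM in Chd8het and 51.2 to 68.49 in WT. Otof was at 27.74 CPM in Chd8het male 2 and 9.935 to 15.17 in the other libraries. Glra3 was at 21.45 CPM in Chd8het male 2 and 21.55 to 24.92 in the other Chd8het libraries. Rorb nuclei numbered 414 in this library and 816 to 1536 in the others. The part of these differences in the share and the Htr2c calls was not tested beyond leaving this library out.

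The genotype difference differed between the members and the other Ccbe1 and Stard8 nuclei for 8 genes. The excess in the members, on the log2 scale, was 1.42 for Rmst, 1.84 for Htr2c, 1.01 for Slc24a3, 0.90 for Il1rapl2, 1.04 for Adarb2, 0.47 for Chsy3, 0.60 for Ncam2 and 0.74 for Spock3. The estimates had opposite signs in the 2 kinds of nuclei for 3 of the 8 genes. They were 0.80 (SE 0.146) in the members and -0.21 (SE 0.127) in the others for Slc24a3. For Spock3 they were 0.69 (SE 0.173) and -0.05 (SE 0.099), and for Chsy3 0.17 (SE 0.107) and -0.31 (SE 0.091). None of these estimates passed an adjusted p of 0.05 within its own kind by edgeR, so a reversal is not shown. In the other Ccbe1 and Stard8 nuclei Chsy3 stood at 527 ± 35.0 CPM in WT and 437 ± 35.7 in Chd8het (SD, n = 4).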

How the results depend on the processing

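The count of 11 genes between genotypes was 12 with the replicate block of the 4 pairs (the 11 and Slit2), 11 under DESeq2 size factors, total-count scaling and the stricter nucleus filter, 0 with no index term, 0 with genotype alone, 30 by DESeq2, 119 of 23981 with no filter on low counts, 6 at a minimum count of 50, 4 without predicted doublets, 3 and 5 at marker sums of 3 and 6, 6 without Glra3 in the rule, 6 with no glial or Gad UMIs, and 0 to 71 without 1 library. Over 242 values for the 11 genes 125 were still called, 117 kept direction without passing and 0 reversed. The block could not estimate sex and moved the interaction with kind from 8 genes to 11. That count was 7 without the index term, 5 without predicted doublets and 5 to 28 without 1 library. The sex count of 12 was 6 without the index term, 36 by DESeq2 and 7 to 169 without 1 library. Sex by genotype, 0, gave 20 with no filter and 0 to 17 without 1 library, the 17 without Chd8het female 1. Thinned to 4000 UMIs the share difference reversed, to -0.045 points of thinned nuclei and -0.0838 of thinned Slc17a7 nuclei. Chd8 lay between -0.13 and 0.0044 without 1 library, reversed at 0.0044 without Chd8het male 1 and 0.0041 without Chd8het female 2. Resolution at 0.5 times gave 5 sub-clusters. The causes were not tested. The pairing p for the share was 0.125. Depth limits genes of a few CPM, since members gave 1605313 to 4127610 UMIs per library.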

Other observations

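Sub-cluster 2, led by 9630002D21Rik, Trpc6 and Bdnf, made up 15.4%, 18.2%, 20.5% and 18.7% of WT members and 13.7%, 15.4%, 13.2% and 17.1% of Chd8het members. It was lower in Chd8het in 4 of 4 pairs, with no test because sub-clusters were examined after the genotype calls. It is picked from 10 sub-clusters, in which 0 to 3 of 4 pairs were higher in Chd8het. An exact permutation of 4 pairs gives no p under 0.125 even for 1 sub-cluster, so a loss is not shown. Of the genes named in earlier results of these data, 4930415C11Rik stood at 73.2, 179, 83.5 and 144 CPM in WT members and 46.2, 59.2, 31.9 and 120 in Chd8het members (-0.91, adjusted p = 0.139, edgeR). Usp11 (-0.35), Thsd7a (0.29), Gm42418 (0.23), Ephb1 (0.08) and Shisa6 (0.06) had adjusted p from 0.475 to 0.989 by the same test.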
